A study of Mus musculus with 2 samples.

Results

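A group of 9 genes of estrogen and xenobiotic metabolism was followed in uterine stromal cells of mice on day 4 of pregnancy. They were chosen by symbol with earlier results of these data known, and any probe set whose platform annotation gives that symbol alone was taken. The genes were Cyp1b1, Cyp1a1, Cyp19a1, Hsd17b1, Hsd17b2, Hsd17b7, Sult1e1, Ahr and Ahrr. Of these, 8 had at least 1 listed probe set, 14 in all, among 18193 genes named on the array. Cyp19a1, the aromatase that makes estrogens from androgens, had none listed in the annotation used here and was not analysed here.

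The study compared floxed control mice, labelled Hand2 Floxed, with Hand2-null mice, in which the floxed Hand2 gene was crossed with PRcre. PRcre places Cre recombinase under the progesterone receptor locus, so deletion is expected wherever that receptor is made, not in the stroma alone. Both labels give a mixed C57BL/6 and SV129 background and name Prcre in it, and whether the control mice carried Cre is not stated. RNA was pooled by genotype (5 mice each in the series design, 4 each in the extraction protocol) and each pool was put on 1 array, so there is no replicate, no error of a difference and no test, and each value below compares 2 pools.

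How much estrogen reaches its receptor depends on the balance of its synthesis, interconversion and breakdown. Aromatase makes estrogens, reductases of the hydroxysteroid dehydrogenase family turn estrone into the potent estradiol, and an oxidase of the same family turns it back. Cytochromes P450 of the first family hydroxylate estradiol to catechol estrogens, and a sulfotransferase adds a sulfate that stops receptor binding. The Ah receptor is a ligand-activated transcription factor that pairs with Arnt on the core letters GCGTG and induces Cyp1a1 and Cyp1b1, and its repressor, Ahrr, competes with it for Arnt.

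Of the 9 genes, Cyp1b1 was the one with a large difference between the pools. Its signal was 527 in the control pool and 59.3 in the Hand2-null pool. The second value was under the level at which signals were ranked, so the gene was at least 7.81-fold lower. Ahr, the gene of the Ah receptor, was nearly level at 426 and 392. One dim probe set of Hsd17b7 just passed the floor, which is the 60th percentile of each array and the level under which signals were not ranked, and the 5 other genes with a probe set stayed below both floors.

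The upstream sequences of Cyp1b1 and of its closest relative on the list, Cyp1a1, are shown because both are standard targets of the Ah receptor, whose own signal was nearly level while that of Cyp1b1 was not. Each is the 250 bases before the RefSeq start on GRCm38.p6, read 5′ to 3′ on the gene's strand, with the letters GCGTG, or CACGC where the core lies on the opposite strand, in capitals. The Cyp1b1 stretch is chr17:79715062-79715311 on the minus strand and the Cyp1a1 stretch is chr9:57697363-57697612 on the plus strand.
Cyp1b1: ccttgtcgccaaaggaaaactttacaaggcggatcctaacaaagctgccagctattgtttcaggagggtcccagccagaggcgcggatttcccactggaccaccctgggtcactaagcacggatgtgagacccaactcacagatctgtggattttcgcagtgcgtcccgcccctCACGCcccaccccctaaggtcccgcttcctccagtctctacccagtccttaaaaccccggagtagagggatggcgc
Cyp1a1: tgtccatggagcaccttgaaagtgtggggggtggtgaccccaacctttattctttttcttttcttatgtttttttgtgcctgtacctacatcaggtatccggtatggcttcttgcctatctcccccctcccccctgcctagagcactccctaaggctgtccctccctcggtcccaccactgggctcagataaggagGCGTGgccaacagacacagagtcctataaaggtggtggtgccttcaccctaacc

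Each stretch held the core once, at bases 76 to 72 before the start in Cyp1b1, on the opposite strand, and at bases 54 to 50 in Cyp1a1. The Cyp1b1 stretch had 12 CG pairs and the Cyp1a1 stretch 3. RefSeq promoters were listed for 6 of the 9 genes, with 8 start sites. The Ahrr stretch held GCGTG 3 times and the Hsd17b7 stretch once, while those of Sult1e1 and of the 3 Cyp19a1 starts held none. Of all 32851 promoter stretches of this length, 28.2% hold GCGTG on either strand. The E-box CATCTG, a form that HAND proteins can bind with their partners, was in 14.4% of all stretches and in none of the genes' 8, and the full palindromic estrogen response element was in 0.0639% of all and in none of the 8. A match or its lack describes letters in this window alone.

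The signals were read on arrays of 45101 probe sets. The floor, the 60th percentile of each array, was a signal of 64.2 in the control pool and 67.5 in the Hand2-null pool. A gene was measured when it reached the floor in at least 1 array, as 10376 genes did, or 57.0% of those named, against 3 of the 8 genes here. Where an array was under its floor the signal was set to the floor, and the fold is then a bound. Log2 ratios are Hand2-null over control. Their middle 95% over all measured genes lay between -0.66 and 0.93, and probe sets of one gene differed with a standard deviation of 0.21 over 4065 genes with several. Hand2 itself checks the labels. Its bright probe set gave 1545 in the control pool and 38.5 in the Hand2-null pool.

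**Figure D1:**
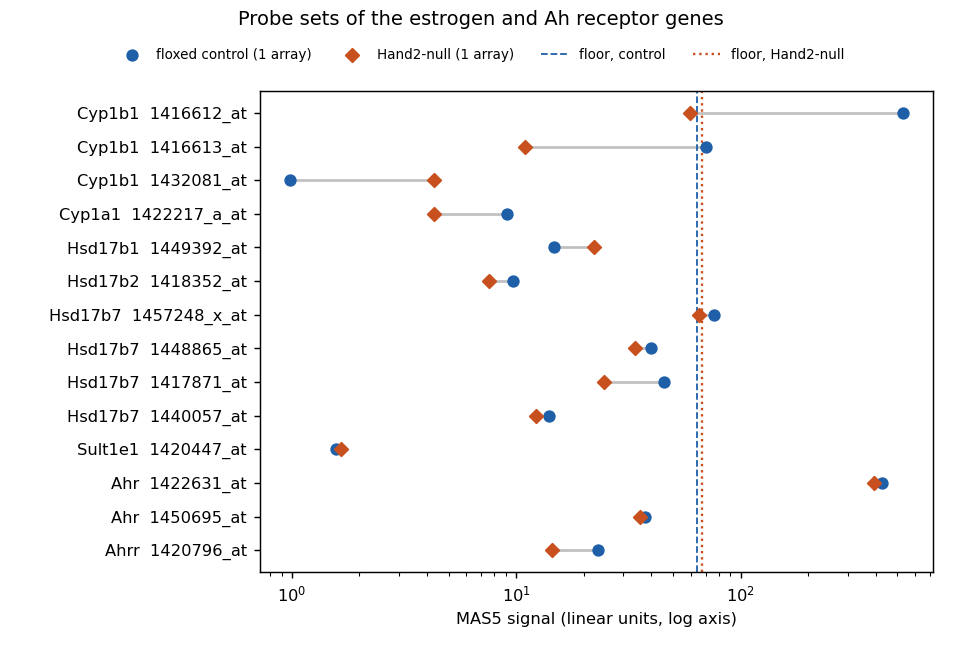
Signal of each listed probe set of the 8 genes in the floxed control array (circles) and the Hand2-null array (diamonds), on a log axis of MAS5 signal, with each array's floor as a vertical line and 1 array for each genotype. The first Cyp1b1 probe set lies at 527 and 59.3, Ahr has 1 probe set above both floors at 426 and 392, and 10 of the 14 probe sets are below both floors.

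Cyp1b1, which hydroxylates estradiol and polycyclic aromatic hydrocarbons, was read by 3 probe sets. Probe set 1416612_at gave a signal of 527 in the control pool and 59.3 in the Hand2-null pool. The control was well above its floor and the Hand2-null signal was under its floor, so the log2 ratio of -2.96 is a bound. Probe set 1416613_at, made from the same expressed sequence, gave 69.9 and 10.9. Its control signal barely passed the floor, which leaves a bounded log2 ratio of only -0.05. Both probe sets thus had the lower signal in the Hand2-null pool, and both were under the floor there. The third probe set, 1432081_at, was far below both floors, at 0.985 and 4.31, and has no fold.

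At least 2-fold lower signals were seen in 0.742% of measured genes and at least 2-fold higher signals in 1.99%, and of the 3 measured genes here 1 was lower by that much and 0 were higher. The genes were chosen with this contrast known, so the count supports nothing further. The measured probe sets of Cyp1b1 had floored ratios of -2.96 and -0.05, both of them bounds. The second is small because its control signal of 69.9 lay just above the floor. The gap between the bounds is therefore no measure of disagreement. Of 22 genes at least 2-fold lower with several measured probe sets, 16 had a probe set short of 2-fold, and in 3, Cyp1b1 among them, that probe set was above -0.1 in log2 ratio.

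Genes of similar brightness, within 1.25-fold of the Cyp1b1 control signal or from 421 to 658, numbered 1281, with a median log2 ratio of -0.05. Of them 6 were at least 2-fold lower, or 0.468%. Cyp1b1 was chosen with its value known, so this share is given as background alone. The size of the fold depends on the floor. A floor at the 75th percentile lowered it to at least 3.19-fold, and averaging the floored ratios of its measured probe sets to at least 2.84-fold.

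The genes next to Cyp1b1 in the order of floored ratios were taken by a set rule, 3 on each side. With the lower ratios were Slc6a2, the noradrenaline transporter, at least 30.4-fold lower, Spink1, a trypsin inhibitor, at least 25.0-fold, and Hand2, at least 22.9-fold. Next above Cyp1b1 came Dleu7, with signals of 358 and 62.0 and at least 5.31-fold lower, S100g, a calcium-binding protein, and Ttr, the thyroid hormone carrier. For Slc6a2, Spink1, Hand2, Cyp1b1 and Dleu7 the Hand2-null signal was below its floor, so their order follows the control signal of each probe set and is no order of response. S100g, at 4.98-fold lower, and Ttr, at 4.93-fold lower, were above the floor in both arrays, whereas the value of Cyp1b1 is a bound, so no measure of likeness is given.

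**Figure D2:**
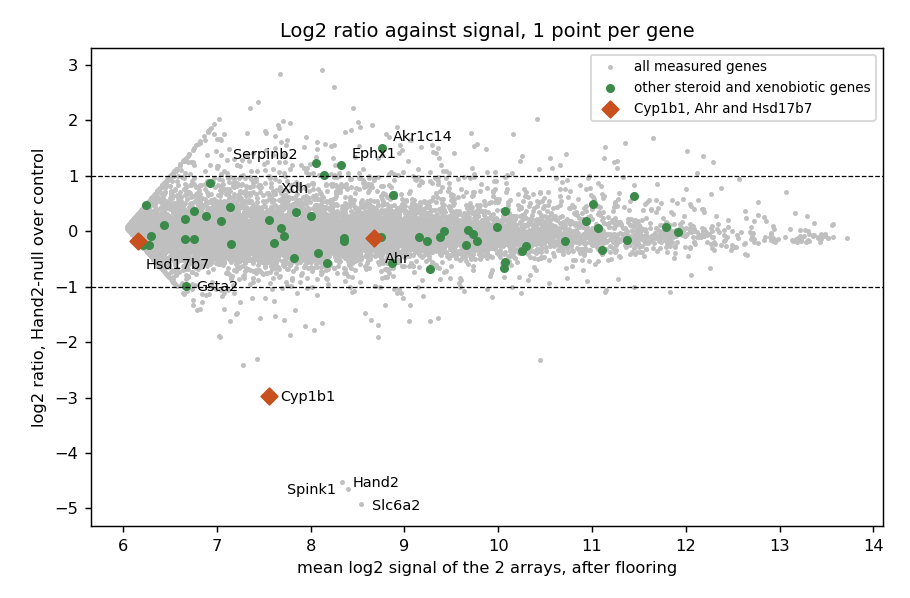
Log2 ratio of Hand2-null over control (vertical) against the mean log2 signal of both arrays after flooring (horizontal), 1 point for each of 10376 measured genes, with dashed lines at 2-fold. Cyp1b1 lies at -2.96 between Hand2, Spink1 and Slc6a2 below it and the rest of the genes above, and Ahr and Hsd17b7 lie near 0, at -0.12 and -0.17.

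Cyp1a1, the other estrogen-hydroxylating enzyme on the list and the usual readout of Ah receptor activity, had 1 probe set. It gave 9.11 in the control pool and 4.29 in the Hand2-null pool. Both signals were far under the floor, so no direction is read from them.

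Ahr, the receptor of dioxins, tryptophan metabolites and other planar ligands, had 2 probe sets. Probe set 1422631_at gave 426 in the control pool and 392 in the Hand2-null pool, a log2 ratio of -0.12. The dimmer probe set, 1450695_at, gave 37.7 and 35.7, below both floors. The ratio of the bright probe set was smaller in size than the standard deviation of 0.21 between probe sets of a gene. That spread is taken within the same 2 pools and does not measure variation between mice or pools. Among 1544 other genes within 1.25-fold of the Ahr control signal, 605 had a ratio as low or lower, around a median of -0.06. Ahrr, the repressor of the receptor and itself a receptor target, gave 23.3 and 14.4, below both floors.

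The hydroxysteroid dehydrogenases that set the ratio of estradiol to estrone were dim. Hsd17b1, which reduces estrone to estradiol, gave 14.8 in the control pool and 22.3 in the Hand2-null pool. Hsd17b2, which oxidizes estradiol to estrone and is known as a progesterone-induced enzyme of the endometrial epithelium, gave 9.72 and 7.53. Both genes were below both floors, each on 1 probe set, so the arrays give no order for either.

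Hsd17b7, which reduces estrone and also takes part in cholesterol synthesis, had 4 probe sets. Probe set 1457248_x_at gave 75.8 in the control pool and 65.4 in the Hand2-null pool, the first just above and the second just below its floor, and its log2 ratio of -0.17 is a bound. The other 3 gave 45.4 and 24.5, 39.8 and 33.8, and 13.96 and 12.3, all below both floors. The ending of the measured probe set's name marks probes that may match other transcripts. Without such probe sets the gene was not measured.

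Sult1e1, the sulfotransferase with the highest affinity for estradiol, gave 1.57 in the control pool and 1.65 in the Hand2-null pool. Both signals were far below the floors, so no level and no direction is read for this gene.

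The other genes of these pathways came from 8 lists chosen with earlier results known. Of their genes 57 were measured, counting each once. Of the 57, 26 had a higher Hand2-null signal and 31 a lower one, and their median log2 ratio was -0.08. Over all measured genes 44.7% were higher and the median was -0.03. At least 2-fold higher were 4 of the 57, or 7.02%, beside 1.99% of all measured genes, and 0 were at least 2-fold lower, beside 0.742%.

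In the list of estrogen synthesis and interconversion 6 of 17 genes with a probe set were measured, with a median of -0.08. Akr1c14, an aldo-keto reductase of steroid hormones, had signals of 257 and 728, or 2.83-fold higher in the Hand2-null array, on 1 measured probe set. Hsd17b10, a mitochondrial enzyme of the family, was at -0.55, with signals of 1298 and 887, and its second probe set was at -0.40. Hsd17b11 was at 0.49, with signals of 1738 and 2450 and a second probe set at 1.04. Srd5a3, named for steroid reductase but active in dolichol synthesis, was at -0.22, with 4 measured probe sets between -0.58 and -0.17. The other 11 genes, Cyp17a1, Cyp11a1 and Star among them, were below both floors. Those 3 carry out the early steps of steroid synthesis from cholesterol.

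Of the measured sulfation and glucuronidation genes, 0 reached 2-fold in either direction. Over all measured genes 1.99% were higher by that much and 0.742% lower, so a count of 0 among so few genes says little. For sulfation 6 of 13 genes with a probe set were measured, 2 higher and 4 lower, with a median of -0.09. Sult1d1, a sulfotransferase of small phenols and amines, was at -0.66, with signals of 1337 and 849 and a second probe set at -0.80. Sult1a1, the phenol sulfotransferase, was at -0.57, from 353 to 237. Papss2, which makes the sulfate donor, was at 0.36, and Slc26a2, a sulfate transporter, at -0.09. For glucuronidation 2 of 12 genes were measured, Ugp2 at -0.36 and Ugdh at -0.18, which make the sugar donor. The transferases of the Ugt2 and Ugt3 families were all under the floor, 10 genes in all, and those of the Ugt1a cluster share probe sets and were left out by the rule.

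The 5 measured genes that pass electrons to cytochromes P450 had a median of -0.10, from Cyb5r1 at -0.40, through Cyb5a at -0.15 and Fdx1 at -0.10, to Cyb5r3 at 0.18. Por and Fdxr, also on that list, had no probe set listed under that symbol alone, so they were not read.

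On the probe set that stood for each gene, the measured partners of the Ah receptor had ratios between -0.10 and 0.27. Its response genes other than Cyp1b1 lay between -0.99 and 1.23. Arnt, its dimer partner, gave 445 and 415, which is -0.10 in log2 ratio, and another probe set gave -0.08. Arnt2 was at 0.27, with signals of 107 and 129. Hsp90aa1, a chaperone that holds the receptor before ligand binds, was at -0.01, and its 3 measured probe sets lay between -0.55 and -0.01. Of the 9 genes of the receptor's response battery with a probe set 5 were measured, 3 higher and 2 lower, with a median of 0.36. Of the 5, 2 were at least 2-fold higher, or 40.0%, beside 1.99% of all measured genes, and 0 at least 2-fold lower, beside 0.742%. Tiparp, a receptor-induced ADP-ribosyltransferase, had signals of 953 and 1220, a ratio of 0.36, and its 3 measured probe sets lay between 0.26 and 0.36. Serpinb2, an inhibitor of plasminogen activators, was 2.35-fold higher, with signals of 174 and 410, and Xdh, the xanthine dehydrogenase, 2.02-fold higher, with 199 and 402. Gsta2, a glutathione transferase, was lower by a log2 ratio of -0.99, from 143 to 72.2, the second near the floor. The quinone reductase Nqo1 was below both floors at 48.1 and 52.5, as were Cyp1a2, Aldh3a1 and Cyp2s1.

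Of 19 measured genes of glutathione conjugation and epoxide hydrolysis 8 had a higher Hand2-null signal and 11 a lower one, and the median ratio was -0.14. Ephx1, the microsomal epoxide hydrolase, had signals of 212 and 483 and was 2.28-fold higher in the Hand2-null array. Beside Gsta2, already given, Gsta4 was at -0.68, with signals of 781 and 487, and Gstm7 at 0.66, with 374 and 591. With a pseudo-signal added in place of the floor, Ephx1 and Xdh no longer reached 2-fold.

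Among the other cytochromes P450, 12 of 68 genes with a probe set were measured and 56 were below both floors. Of the 12, 7 had a higher Hand2-null signal and 5 a lower one, and the median ratio was 0.13. Of these genes 0 reached 2-fold in either direction, beside 1.99% of all measured genes higher and 0.742% lower. Cyp4b1 had signals of 89.9 and 165, a ratio of 0.88, and Cyp26b1, which breaks down retinoic acid, 56.7 and 88.7, a bounded ratio of 0.47. Cyp2d22 was at 0.44, although its second probe set was at -0.17. Cyp7b1, a hydroxylase of oxysterols and steroids, was at 0.28.

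**Figure D3:**
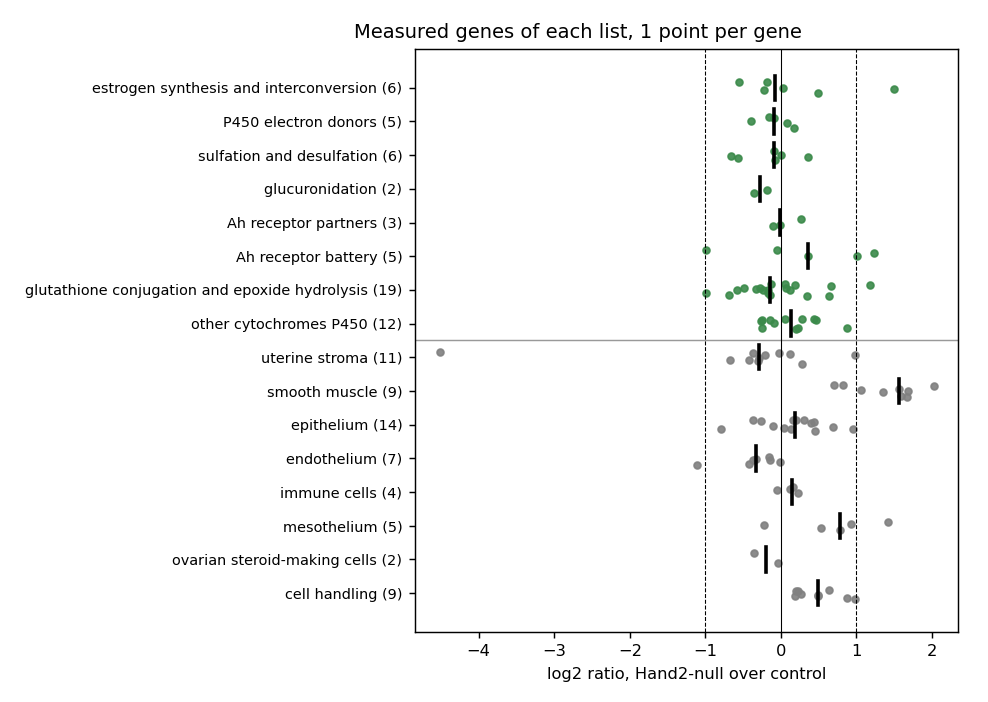
Log2 ratio of Hand2-null over control for each measured gene of the 8 pathway lists (upper rows) and the 8 marker lists (lower rows), with the number measured in brackets, a thick bar at the median and dashed lines at 2-fold. The pathway medians lie between -0.27 and 0.36, while smooth muscle markers have a median of 1.56 and endothelial markers one of -0.33.

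The pools differed in markers of cell types that could hold these transcripts, and fewer cells of a type cannot be told apart from less RNA in each. All 11 stromal markers were measured, 8 with a lower Hand2-null signal and 3 with a higher one, and their median ratio was -0.29. Hand2 was the one at least 2-fold lower, Hoxa11 was at -0.68 and Col1a1 at 0.98. Pgr and Esr1, counted as lower, each had a measured probe set that was higher, at 0.16 and 0.42. The summed signals of the stromal markers, which rest mostly on the bright Dcn, Col3a1 and Vim, were 43950 in the control pool and 43788 in the Hand2-null pool. Hand2 is the deleted gene, so its fall from 1545 to 38.5 is set by genotype and is no measure of stromal cells. It is part of the count, the median and the sums. Its fall was larger than that of the sum, so the other stromal markers together were not lower. All 7 endothelial markers had a lower Hand2-null signal, with summed signals of 2899 and 2173, a median of -0.33, Cdh5 at -1.11, Emcn at -0.43 and Vwf at -0.38. Much of the fall in the sum came from Cdh5, with signals of 735 and 341. Kdr was nearly level at -0.01, and the 4 measured probe sets of Egfl7 lay between -0.18 and 0.06. All 9 smooth muscle markers were higher on the probe set that stood for each, from 16806 to 37037 in sum. Of them 7, or 77.8%, were at least 2-fold higher, beside 1.99% of all measured genes. Cnn1 was at 2.02, Myh11 at 1.68 and Lmod1 at 1.66, while the 3 measured probe sets of Synpo2 lay between -0.47 and 0.82. Of 14 measured epithelial markers 10 were higher, with sums of 8852 and 9313, Foxa2 of the glands at -0.79, Elf3 at 0.69 and Krt19 at 0.96. Mesothelial markers had a median of 0.78, and 4 of 5 were higher, with Upk3b at 1.42, Msln at 0.93 and Lrrn4 at 0.78, the last 2 bounds from control signals under the floor. The 4 measured immune markers had a median of 0.14, and Cd3e and Ncr1 were below both floors. Of markers of ovarian steroid-making cells Cyp11a1, Star, Fshr and Amh were below both floors, and the 2 measured, Foxl2 and Inha, were at -0.36 and -0.04. All 9 genes of the immediate-early and heat-shock response, which react to the handling of cells, were higher, at a median of 0.49, with Fosb at 0.98. The part of these differences in the value of Cyp1b1 or of the other genes was not tested.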

How the data were processed

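RNA of uterine stromal cells from floxed control and Hand2-null mice, pooled by genotype, was read on 1 array each. The deposited values are intensity on a linear scale. The authors made them with MAS5, and the submitters' processing notes name Affymetrix Expression Console, version 1. Both arrays had a mean of 150.001 once 2% was trimmed from either end, so each was scaled to a common target. MAS5 subtracts mismatch probes, so ratios of dim probe sets are unsteady. Genes came from the platform annotation, and only probe sets with 1 symbol were used (34945, against 932 with several and 9160 with none listed, after leaving out 64 controls).

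Here each array was floored at its 60th percentile and log2 ratios were taken. The probe set with the highest mean stood for its gene. The threshold was 2-fold. With 1 array per genotype no test was made, and the number of arrays limits the precision. The genes, lists and settings were chosen with earlier results of these data known. The text names all 9 genes, Hand2, the 3 genes on each side of Cyp1b1 in the order of ratios, and in each list the genes past 2-fold or, up to 4 in all, those with the largest ratios, and in each marker list up to 3 with large ratios and the markers under the floor. Genes under the floor, receptor partners named for their role, and the markers Kdr, Egfl7, Synpo2, Pgr and Esr1 are outside that rule. They were chosen after their values were seen. Por and Fdxr are named because no probe set was listed for them. Promoters came from RefSeq (GRCm38.p6), without the 50 bases after the start. Alternatives were median centring, quantile normalization, loess (span 0.3), floors at the 50th and 75th percentiles or none, a pseudo-signal, the average of a gene's probe sets, dropping those that may match several transcripts, and thresholds of 1.5-fold and 3-fold. The procedure was run on simulated arrays with known folds and independent noise. That check held no difference between mice or pools, so it says nothing on how far these ratios would repeat. Python 3.11.15, numpy 2.4.6, pandas 2.3.3, statsmodels 0.14.6 and matplotlib 3.10.9 were used.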

Additional observations from a re-analysis of the deposited data

How the results depend on the processing

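Cyp1b1 was at least 2-fold lower under all 9 alternatives of normalization, floor and probe set choice, with log2 ratios from -3.15 to -1.51. Its size moved by more than the spread between probe sets under 3 of them, to -1.67 with the floor at the 75th percentile, -2.22 with a pseudo-signal and -1.51 by the mean over probe sets. The alternatives all reuse the same 2 arrays, so they are not independent. Dropping probe sets that may match several transcripts left the ratio at -2.96, and no floor gave the same -3.15 as the floor at the 50th percentile. With no floor 8 of the genes had a value and 2 were at least 2-fold lower, Cyp1a1 being the second from signals far under the floor. Of the other pathway genes 21 were then at least 2-fold lower and 17 higher, as were 1626 and 1646 of 18193 genes over the array, so ratios of signals under the floor carry little. Among those pathway genes 1 was at least 2-fold lower after quantile normalization (Gsta2, at -1.04), and 2 were at least 2-fold higher with a pseudo-signal. At 1.5-fold 3 were lower and 7 higher, and at 3-fold 0 were higher. Hsd17b7 had no value with the floor at the 75th percentile or without probe sets that may match several transcripts. No paired analysis was possible because each genotype has 1 array.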
